A study of Mus musculus with 2 samples.

Results

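Antigen presentation in the pancreatic islet was followed through 8 genes of the 31053 in the files. They were chosen by symbol, with earlier results of these data known. The class I genes were *H2-K1* and *H2-D1*, which encode the heavy chains of the classical MHC class I molecules of the mouse, *B2m*, the light chain that both heavy chains need to reach the cell surface, and *Tap1*, a subunit of the transporter that carries peptides into the endoplasmic reticulum. The class II genes were *Cd74*, the invariant chain that fills the peptide groove until the molecule reaches the endosome, *H2-Aa* and *H2-Ab1*, the α and β chains of I-A, and *H2-Eb1*, the β chain of I-E.

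As background, class I molecules show peptides of a cell's own proteins to cytotoxic T cells and are made by nearly all nucleated cells. Class II molecules show peptides of engulfed material to helper T cells and are made mainly by macrophages, dendritic cells and B cells, where the transactivator *Ciita* switches the genes on together. Interferon-γ raises both classes, and class I on β cells and class II on resident macrophages are much studied in autoimmune diabetes of the mouse islet.

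Islets of WT and *Npc1*-/- littermates on a C57BL/6J background were dispersed at 2 weeks of age and profiled by droplet single cell RNA sequencing, in 1 library per genotype from a pool of 3 female mice. The knockout is global, so macrophages and vessels lacked *Npc1*, which encodes a protein that exports cholesterol from lysosomes, as did the endocrine cells, and no agent was given to either genotype. Because mice of a pool cannot be told apart, each genotype is a single sample: no test between genotypes was possible, intervals in brackets are 95% intervals for counting error only, and differences between the pools have no replicate check.

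The WT library held 114324626 UMIs in 8569 barcodes and the *Npc1*-/- library 127122035 UMIs in 7646 barcodes, of which 4628 and 4269 were kept. *Npc1* itself was lower in the *Npc1*-/- library, at 4.14 counts per 1000000 UMIs (CPM) against 8.40 CPM over the kept barcodes, and was lower in each of 7 classes. Barcodes were put into classes by hormone share or by marker genes, and each class name below means cells like that type by those markers. β cells numbered 1833 in WT and 1826 in *Npc1*-/-, α cells 1048 and 857, δ cells 189 and 141, PP cells 411 and 442, endothelial cells 417 and 420, stellate cells 232 and 250, and macrophages 49 and 31. B cells numbered 140 in WT and 1 in *Npc1*-/-, so B cell values are given for WT only. T cells numbered 79 and 0, and whether the lymphocytes came from the islets or from tissue carried along was not tested. The markers of each named class were raised in it. This is no separate check, since the same lists set the endothelial, stellate, macrophage and B cell classes. The endocrine lists also include the hormones that set those classes. The share left unnamed was 3.26% in WT and 4.78% in *Npc1*-/-, and 3 barcodes were kept in both libraries. The median depth was 30417 and 30094 UMIs in β cells, 7560 and 9846.5 in endothelial cells, and 11042 and 16776 in macrophages, so the macrophages of the libraries differed in depth.

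The genes lie mostly in the MHC. By the GRCm38 annotation, *H2-K1* (ENSMUSG00000061232) spans chr17:33996017-34000347 on the minus strand, *H2-D1* (ENSMUSG00000073411) chr17:35262730-35267499 on the plus strand, *H2-Aa* (ENSMUSG00000036594) chr17:34282744-34287823 on the minus strand and *H2-Eb1* (ENSMUSG00000060586) chr17:34305867-34316674 on the plus strand. *B2m* (ENSMUSG00000060802) lies apart from them at chr2:122147686-122153083 on the plus strand. The promoters below, each from 250 bases before to 50 bases after the transcription start, were taken from RefSeq (GRCm38.p6) and are printed on the gene's own strand, because they show which short sequences the class I genes share and which the class II genes share. Capitals mark matches on either strand to the enhancer A sequence GGGATTCCC, to the interferon type sequence AANNGAAA, to the Y box CTGATTGG, and to the X box core GCAAC where it began within 45 bases before a Y box. RefSeq gave 2 starts for *H2-K1*, of which 1 is shown. The *H2-K1* promoter is chr17:34000284-34000583, that of *H2-D1* chr17:35262844-35263143, that of *B2m* chr2:122147437-122147736, that of *H2-Aa* chr17:34287774-34288073 and that of *H2-Eb1* chr17:34305617-34305916.
H2-K1: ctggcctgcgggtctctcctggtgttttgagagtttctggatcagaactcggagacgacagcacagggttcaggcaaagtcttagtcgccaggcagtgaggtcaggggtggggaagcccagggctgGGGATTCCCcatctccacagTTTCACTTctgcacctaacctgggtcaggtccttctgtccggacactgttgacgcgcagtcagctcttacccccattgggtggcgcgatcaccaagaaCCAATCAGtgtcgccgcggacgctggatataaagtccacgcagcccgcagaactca
H2-D1: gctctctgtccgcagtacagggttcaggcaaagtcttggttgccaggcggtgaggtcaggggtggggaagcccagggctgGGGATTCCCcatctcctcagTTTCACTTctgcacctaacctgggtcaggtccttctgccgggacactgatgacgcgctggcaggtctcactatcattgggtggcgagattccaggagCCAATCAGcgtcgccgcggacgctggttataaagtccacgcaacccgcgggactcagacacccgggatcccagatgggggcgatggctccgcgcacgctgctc
B2m: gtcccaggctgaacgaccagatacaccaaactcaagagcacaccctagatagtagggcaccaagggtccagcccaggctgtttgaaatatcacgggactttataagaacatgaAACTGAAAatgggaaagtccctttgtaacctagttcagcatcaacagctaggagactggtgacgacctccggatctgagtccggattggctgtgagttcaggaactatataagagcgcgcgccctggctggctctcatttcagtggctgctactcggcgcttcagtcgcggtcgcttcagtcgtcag
H2-Aa: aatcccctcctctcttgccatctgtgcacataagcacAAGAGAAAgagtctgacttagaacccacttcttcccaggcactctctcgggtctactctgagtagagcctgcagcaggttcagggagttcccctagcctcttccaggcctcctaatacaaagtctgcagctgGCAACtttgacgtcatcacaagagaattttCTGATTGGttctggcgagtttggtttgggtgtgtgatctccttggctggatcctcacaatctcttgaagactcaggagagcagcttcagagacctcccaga
H2-Eb1: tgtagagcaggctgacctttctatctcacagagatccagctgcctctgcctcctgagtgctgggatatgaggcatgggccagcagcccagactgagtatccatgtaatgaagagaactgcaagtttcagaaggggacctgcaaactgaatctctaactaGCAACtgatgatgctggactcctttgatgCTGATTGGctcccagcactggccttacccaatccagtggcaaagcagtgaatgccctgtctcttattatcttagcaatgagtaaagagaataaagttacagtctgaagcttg

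The heavy chain promoters held the same trio in the same order: GGGATTCCC, then a match to AANNGAAA, then the Y box on the opposite strand, with first bases at -124, -104 and -6 from the start in *H2-K1* and at -170, -150 and -53 in *H2-D1*. GGGATTCCC occurs in 116 of the 32851 RefSeq promoters of the mouse (0.353%). *B2m* held neither of the others, only AANNGAAA at -137, letters found in 23.9% of promoters. *H2-Aa* and *H2-Eb1* each held GCAAC followed by CTGATTGG, with the starts of these runs 30 and 29 bases apart, a spacing rule met by 54 promoters (0.164%), while the Y box alone is in 4.1% and GCAAC alone in 35.2%. *Tap1* held a Y box and no GGGATTCCC. A match is a description of the letters and not evidence that a factor binds there.

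*H2-K1* and *H2-D1* were found in all classes, and their level depended on the class far more than on the genotype. The level below is the sum of a gene's UMIs in a class relative to all UMIs of that class, in CPM, and since each UMI stands for 1 captured molecule at its 3′ end, no division by length was made. *H2-K1* was at 222 CPM in WT β cells and 207 in *Npc1*-/- β cells, at 284 and 255 in α cells, at 423 and 403 in δ cells, and at 364 and 345 in PP cells. Among the endocrine cells, on these totals that include hormones, β cells were lowest and δ cells highest in both libraries. *H2-K1* was at 475 and 565 CPM in endothelial cells, 742 and 802 in macrophages, 903 in WT B cells, and only 49.8 and 77.3 in stellate cells. The order in WT was B cells, macrophages, endothelial, δ, PP, α, β and stellate cells, with no overlap of the intervals of neighbours, and the order of the 7 classes in *Npc1*-/- was the same.

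*H2-D1* followed the same order except at the top. It stood at 189 and 174 CPM in β cells, 258 and 246 in α cells, 465 and 481 in δ cells, 359 and 371 in PP cells, 902 and 1031 in endothelial cells, 1182 and 1453 in macrophages, 111 and 129 in stellate cells, and 1103 in WT B cells, where its interval overlapped that of WT macrophages. The share of the heavy chains changed with the class. The ratio of *H2-K1* to *H2-D1* was 1.17 and 1.19 in β cells, 1.10 and 1.04 in α cells, 0.909 and 0.838 in δ cells, 0.527 and 0.548 in endothelial cells, and 0.628 and 0.552 in macrophages. Hence *H2-K1* led in β cells and *H2-D1* in vessels and macrophages, in both libraries.

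These levels carry a pair of limits. Hormone messages filled much of the endocrine libraries. When hormone genes were left out of the totals, *H2-K1* in WT stood at 527 CPM in β cells, 437 in α cells, 626 in δ cells, 630 in PP cells and 486 in endothelial cells. WT β cells were then no longer below the vessels, and δ cells no longer led the endocrine classes in WT. The lowest endocrine class was then α and not β, also in *Npc1*-/-, where *H2-K1* was at 390 CPM in α and 469 in β cells. *H2-D1* too was lower in α than in β cells, at 397 against 449 CPM in WT and 376 against 394 in *Npc1*-/-. On the same scale *H2-K1* in *Npc1*-/- stayed lower in β cells, at 469 against 572 CPM in endothelial cells, as did *H2-D1*, at 449 against 923 CPM in WT and 394 against 1044 in *Npc1*-/-. The heavy chains also share sequence with other class I genes: of the 90-base windows in the last 500 bases of their transcripts, 60 of 2601 (2.31%) for *H2-K1* and 103 of 1154 (8.93%) for *H2-D1* occur in other genes too, against 0 for the other 6 members, and reads from those windows could not be assigned to 1 gene.

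**Figure D1:**
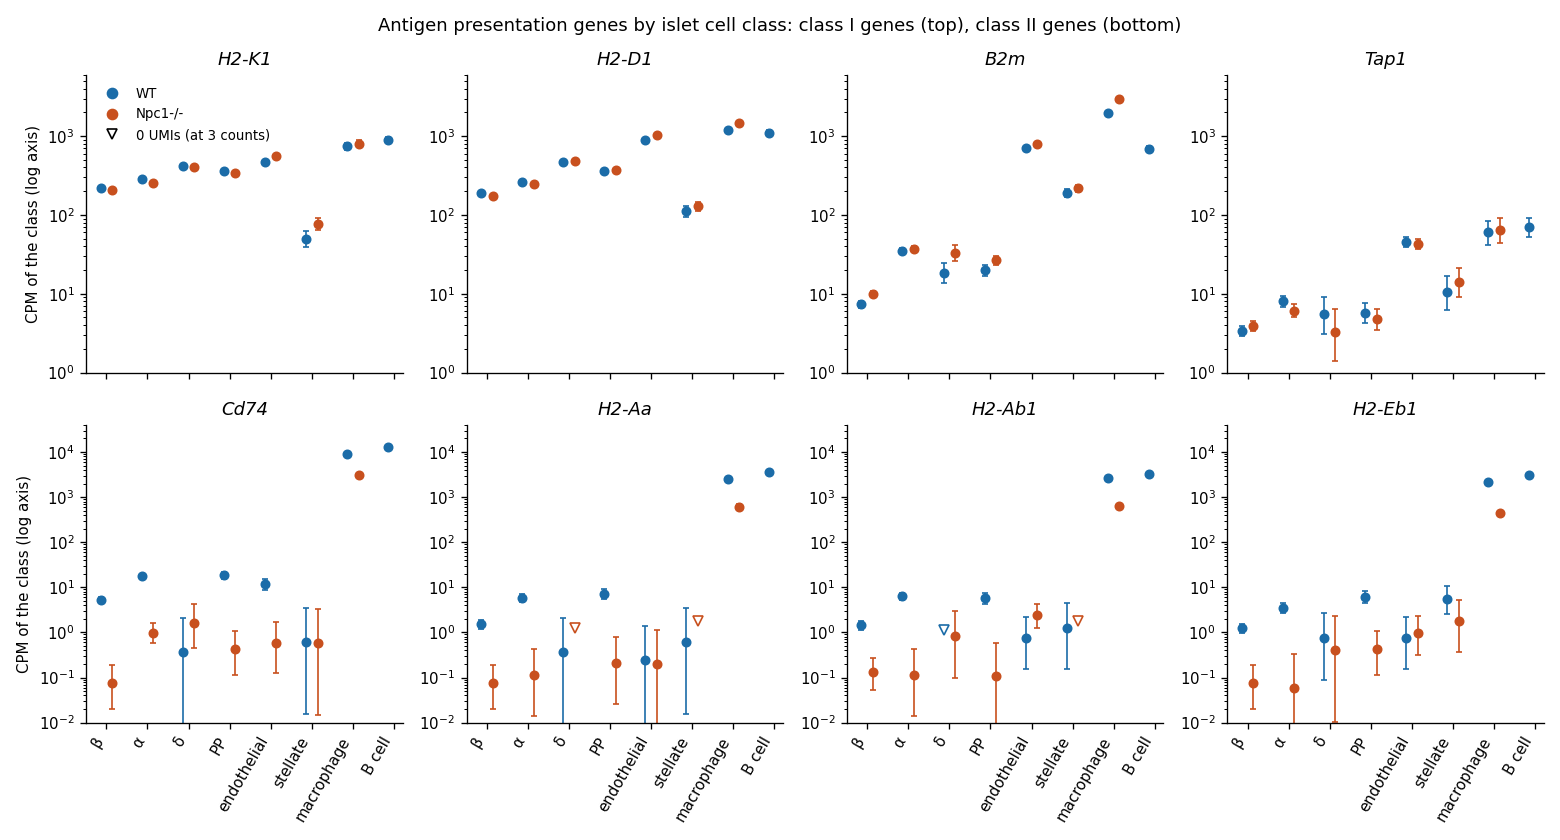
Level of each of the 8 genes by cell class and library, in CPM on log axes that differ between the class I and class II rows, with 95% intervals for counting error and triangles at 3 counts where a class held 0 UMIs. H2-K1 runs from 49.8 CPM in WT stellate cells to 903 CPM in WT B cells, B2m spans from 7.30 CPM in WT β cells to 2956 CPM in Npc1-/- macrophages, and the class II genes are high in macrophages and WT B cells.

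*B2m* did not follow the heavy chains. The light chain stood at 7.30 CPM in WT and 9.90 in *Npc1*-/- β cells, on 400 and 536 UMIs in total, at 34.9 and 36.8 in α cells, 18.4 and 32.9 in δ cells, and 19.8 and 26.5 in PP cells. Outside the endocrine cells it was at 706 and 784 CPM in endothelial cells, 190 and 219 in stellate cells, 1943 and 2956 in macrophages, and 689 in WT B cells. Stellate cells, which had the lowest heavy chain levels, thus had more *B2m* than any endocrine class. Of the *Npc1*-/- δ cell UMIs, 33 of 80 came from 1 barcode, and the classes α, δ and PP had overlapping neighbours in that library.

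Set against its partners, *B2m* was lower in the 4 endocrine classes than in the other classes. For each UMI of *H2-K1* and *H2-D1* summed there were 0.0177 (0.0160 to 0.0196) UMIs of *B2m* in WT β cells and 0.0260 in *Npc1*-/- β cells, 0.0643 and 0.0736 in α cells, 0.0207 and 0.0372 in δ cells, and 0.0273 and 0.0370 in PP cells. The same ratio was 0.513 and 0.491 in endothelial cells, 1.18 and 1.06 in stellate cells, 1.01 and 1.31 in macrophages, and 0.343 in WT B cells. Being a ratio of genes within the same cells, it does not change with the hormone share of the total. Without the endocrine barcodes that held UMIs of 2 or more immune or endothelial markers, the ratio in β cells was 0.0123 in WT and 0.0205 in *Npc1*-/-. It was then 0.0522 and 0.0724 in α cells and 0.0241 and 0.0340 in PP cells. In δ cells it was then 0.0157 (0.0105 to 0.0227) and 0.0187 (0.0127 to 0.0267). These δ intervals overlapped, unlike those over all δ barcodes.

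The share of cells with a UMI showed the same contrast. After each cell was thinned to 5000 UMIs, *H2-K1* was seen in 66.2% of WT and 64.6% of *Npc1*-/- β cells, while *B2m* was seen in 3.04% and 5.27% of them and in 12.8% and 14.3% of α cells. *B2m* was seen in 94.6% and 96.1% of endothelial cells, in 60.6% and 63.9% of stellate cells, and in all macrophages. *H2-K1* was seen in 20.7% and 27.7% of stellate cells, 84.1% and 88.1% of endothelial cells, and 90.2% and 100% of macrophages. Capture at the 3′ end depends on each transcript's end, and the part of this in the gap between *B2m* and the heavy chains was not tested.

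**Figure D2:**
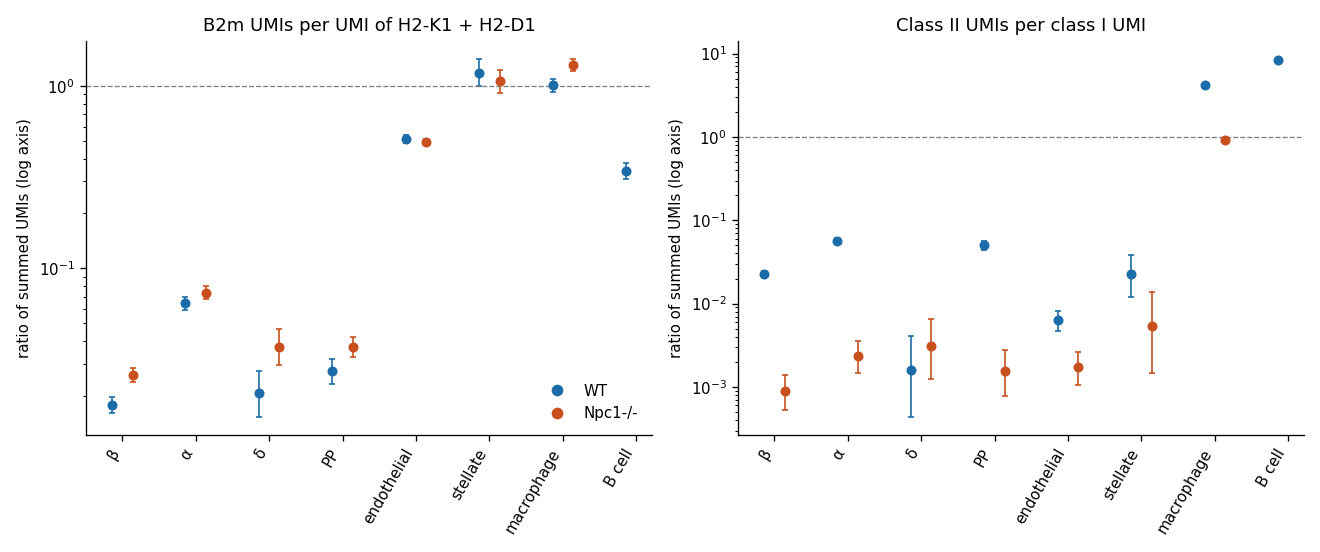
Ratios of summed UMIs by cell class and library on log axes, with 95% intervals for counting error. B2m per heavy chain UMI is below 0.1 in the 4 endocrine classes and above 0.3 in the others, and class II per class I UMI exceeds 1 in WT macrophages and WT B cells.

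*Tap1* was the least abundant class I member. It was at 3.41 and 3.90 CPM in β cells, 8.06 and 6.12 in α cells, 45.4 and 43.0 in endothelial cells, 10.6 and 14.2 in stellate cells, 60.4 and 64.7 in macrophages, and 69.7 in WT B cells. The intervals of B cells, macrophages and endothelial cells overlapped in that order in WT, as did those from stellate through α, PP and δ to β cells. *Tap1* was therefore higher in vessels and immune cells than in endocrine cells, as *B2m* was. On these totals α cells stood above β cells in both libraries without overlap of their intervals. With hormone genes left out of the totals, α and β cells were at 12.4 and 8.09 CPM in WT. In *Npc1*-/- they were then at 9.37 and 8.82 CPM, on 105 and 211 UMIs, so that the gap was small there.

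Among the classes followed here, the class II genes were abundant in B cells and macrophages and nearly absent from the others. Outside these classes, unnamed WT barcodes held 8097 class II UMIs, at 4646 CPM, and WT T cells 563, at 1280 CPM. In WT B cells *Cd74* was at 13106 CPM, *H2-Aa* at 3519, *H2-Ab1* at 3298 and *H2-Eb1* at 3108. In WT macrophages *Cd74* was at 9175 CPM, *H2-Aa* at 2521, *H2-Ab1* at 2704 and *H2-Eb1* at 2146. In *Npc1*-/- macrophages the same genes were at 3109, 618, 621 and 439 CPM. *Cd74* exceeded the other 3 genes together in each, with ratios of 1.32 in WT B cells, 1.24 in WT macrophages and 1.85 in *Npc1*-/- macrophages. WT B cells held 8.33 class II UMIs for each class I UMI and WT macrophages 4.21, while *Npc1*-/- macrophages held 0.907.

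In β cells *Cd74* stood at 5.31 CPM in WT and 0.0739 in *Npc1*-/-, in α cells at 17.5 and 0.990, in PP cells at 18.4 and 0.428, and in δ cells at 0.368 and 1.64, the last pair on 1 and 4 UMIs. Most of the WT counts lay in few barcodes. The 3481 WT endocrine barcodes held 1443 class II UMIs, of which 1244 were in 9 barcodes with 20 or more: 4 β cells with 393 of the 521 of their class, 3 α cells with 567 of 612, and 2 PP cells with 284 of 306. Another 162 barcodes had exactly 1 class II UMI. The 3266 *Npc1*-/- endocrine barcodes held 59 class II UMIs, and 0 of them had 20 or more.

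Of those 9 WT barcodes, 7 also held UMIs of 3 or more of the 8 B cell markers, and 6 were among the barcodes with the highest doublet scores. The summed B cell markers were at 9.95 CPM in WT and 2.38 in *Npc1*-/- β cells, and at 25.5 and 3.20 in α cells, in the libraries with 140 and 1 B cells, and their part in the class II values of endocrine cells was not tested further. When endocrine barcodes with UMIs of 2 or more immune markers were left out, the summed class II level was 2.28 and 0.180 CPM in β cells, 2.37 and 0.750 in α cells, 2.36 and 1.29 in PP cells, and 1.73 and 0.466 in δ cells. The other 2, singled out after their values were seen, had 0 UMIs of the B cell markers. The PP cell had 124 class II and 29 class I UMIs, with UMIs of 1 macrophage and 2 T cell markers, an *Sst* share of 11.04% beside a *Ppy* and *Pyy* share of 11.6%, and a doublet score among the highest. The α cell, with UMIs of 2 macrophage, 1 dendritic cell and 1 T cell marker, had 21 class II UMIs, 17 of them *Cd74*, with 192 class I UMIs.

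**Figure D3:**
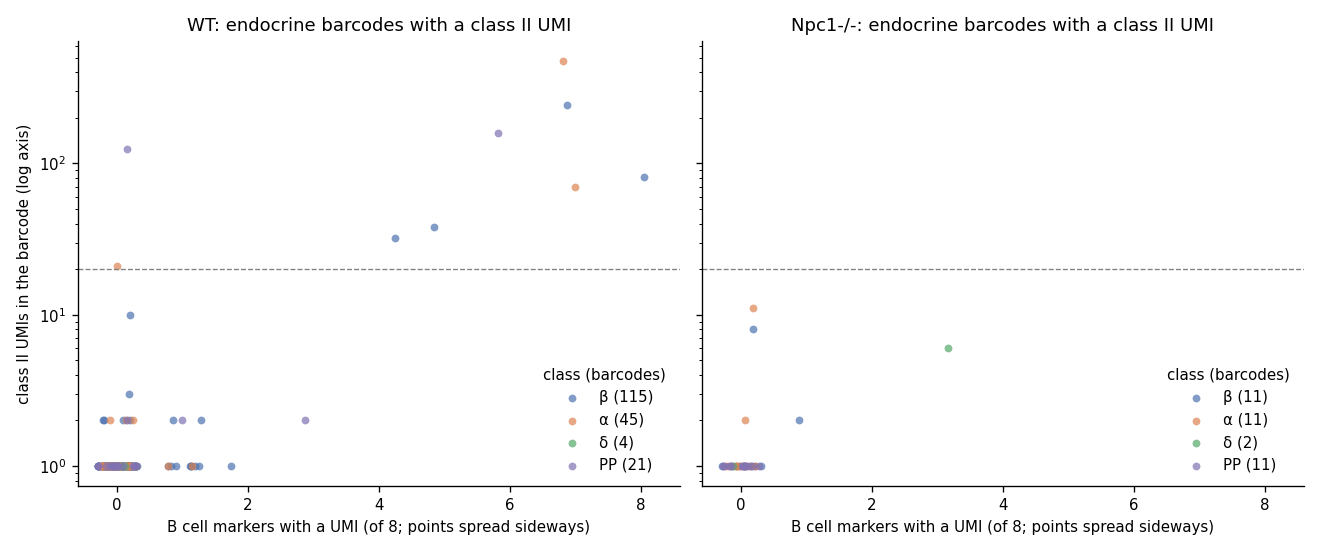
Class II UMIs (log axis) against the number of the 8 B cell markers with a UMI, for each endocrine barcode with at least 1 class II UMI, coloured by class, in WT (left) and Npc1-/- (right), with a dashed line at 20 UMIs. The 9 barcodes at 20 UMIs or more are all from the WT library, and most of the other barcodes have 1 UMI.

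As a share of cells at 5000 UMIs, any class II gene was seen in 1.11% of WT and 0.111% of *Npc1*-/- β cells and in 1.28% and 0.357% of α cells. Endothelial cells, with 2.43% and 1.55%, and stellate cells, with 4.79% and 1.57%, had shares at or above those of the endocrine cells. Some intervals overlapped, as in WT those of α cells (0.69% to 2.18%) and endothelial cells (1.12% to 4.57%). The 5000 UMIs include hormone messages, which took 57.8% of the UMIs of WT β cells and 2.26% of those of WT endothelial cells. What the endocrine shares stand for was not tested. In macrophages the shares were 90.2% and 87.1%, and in WT B cells 100% of the 46 that reached 5000 UMIs. A WT endothelial barcode with 5 B cell markers held 23 of the 54 class II UMIs of its class.

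Macrophages varied widely among themselves. The summed class II level of single macrophages ran from 0 to 67408 CPM in WT, with a median of 8945, and from 0 to 32607 CPM in *Npc1*-/-, with a median of 1670. At 10000 CPM or more lay 24 of 49 WT and 5 of 31 *Npc1*-/- macrophages, and below 1000 CPM lay 13 and 12. The ranges overlapped, and in both libraries some macrophages were at or near 0. The class I level was far more even, from 1200 to 9583 CPM in WT with a median of 3723, and from 2798 to 9031 CPM in *Npc1*-/- with a median of 5073. The complement genes *C1qa*, *C1qb* and *C1qc*, which mark resident macrophages, were all detected in 45 WT and 30 *Npc1*-/- macrophages, and in these the class II medians were 11492 and 2017 CPM.

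**Figure D4:**
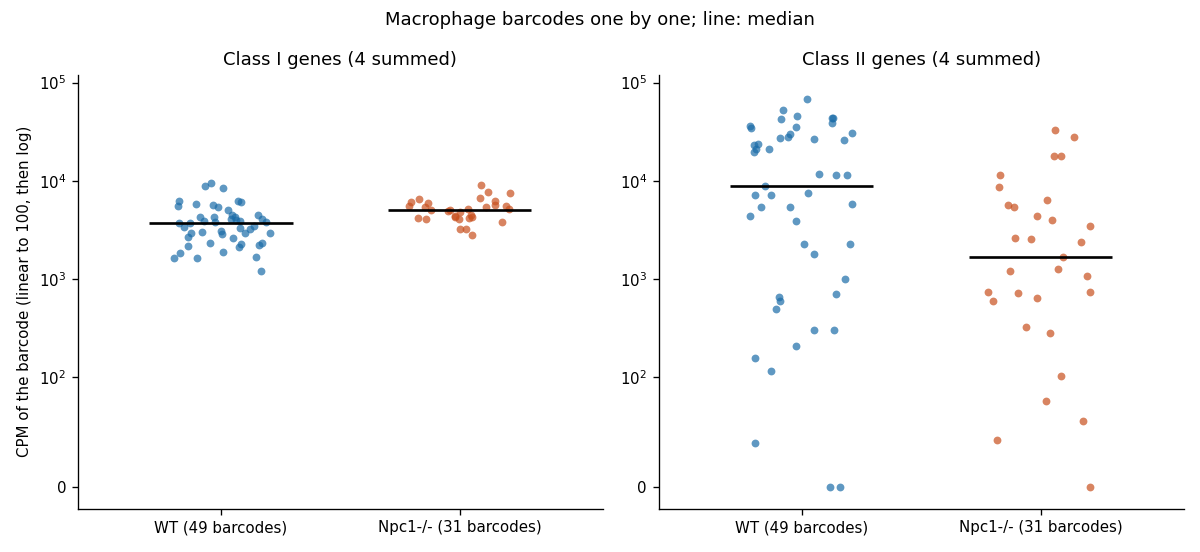
Summed class I (left) and class II (right) level of each macrophage, in CPM on an axis that is linear to 100 and logarithmic above, with the median as a line, for the 49 WT and 31 Npc1-/- barcodes. Class II spreads from 0 to 67408 CPM in WT and from 0 to 32607 CPM in Npc1-/-, with medians of 8945 and 1670 CPM, and the libraries overlap.

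The class II genes were lower in *Npc1*-/- than in WT macrophages. Log2 ratios of *Npc1*-/- over WT are given relative to the median gene of the class. The ratio was -1.55 (-1.63 to -1.47) for *Cd74*, -2.01 for *H2-Aa*, -2.11 for *H2-Ab1*, -2.27 for *H2-Eb1* and -1.78 (-1.84 to -1.71) for their sum, so that *Cd74*, the most abundant, was nearest to 0. *B2m* was higher by 0.62 (0.51 to 0.73), *H2-D1* by 0.31 and *H2-K1* by 0.12 (-0.07 to 0.32). With the genes counted past 1.5-fold where 1 library had at least 20 UMIs, 5 of 8 members passed in macrophages, *B2m* upward and the class II genes downward, beside 24.5% of the 3815 genes measured there.

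These intervals cover the counting of molecules and not the spread between macrophages, which was wider. Without the 5 highest macrophages of each library, the summed class II level was 13218 CPM in WT and 2097 in *Npc1*-/-, against 16546 and 4788 with them. In *Npc1*-/- the 5 were all the macrophages at 10000 CPM or more, while WT had 24 such macrophages. Leaving out 5 therefore did not weigh the libraries alike. Under a stricter barcode filter, the log2 ratio of the class II sum was -2.70. This filter left 19 WT and 9 *Npc1*-/- macrophages, fewer than the 20 cells asked for in the reported ratios. The B cell markers were at 366 CPM in WT and 335 in *Npc1*-/- macrophages and the macrophage markers at 21463 and 29106 CPM. The dendritic cell markers were at 128 and 227 CPM, with 4 and 6 of the 8 at 0. The part of these, of depth and of the number of cells in the class II difference was not tested, and genotype, pool and library cannot be told apart.

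In the endocrine cells the class I genes differed little between libraries. In β cells the log2 ratio was -0.24 (-0.27 to -0.20) for *H2-K1*, -0.26 for *H2-D1*, 0.30 for *B2m* and 0.06 for *Tap1*. In α cells it was -0.19 for *H2-K1*, -0.10 for *H2-D1*, 0.05 for *B2m* and -0.43 (-0.80 to -0.06) for *Tap1*. The members past 1.5-fold were 4 of 8 in β cells, beside 8.46% of all genes measured there, 4 of 8 in α cells, beside 5.94%, and 4 of 8 in PP cells, beside 7.53%. All of them were the class II genes, lower in *Npc1*-/-, whose WT counts came mostly from the 9 barcodes above. In each of these classes they met the minimum of 20 UMIs in WT only. They could therefore hardly pass in another direction, and the shares of all genes are no fair measure for them. Without the barcodes of 2 or more immune markers 3 members still passed in β cells, 1 in α cells and 0 in PP cells. The class II genes together then held 114 UMIs in WT β cells, 38 in WT α cells and 17 in WT PP cells. The minimum of 20 UMIs thus limited these counts, and no class II gene could meet it in PP cells. The share of all genes is not given for this setting. In δ cells 1 of 3 passed, *B2m*, beside 9.16%, and with 33 of its 80 UMIs in 1 barcode.

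In endothelial cells the class I genes stayed within 1.5-fold, with *H2-K1* higher by 0.24, *H2-D1* by 0.18 and *B2m* by 0.14 in *Npc1*-/-. The member that passed there, 1 of 5 beside 7.58% of genes, was *Cd74*, at 47 UMIs in WT and 3 in *Npc1*-/-. It met the minimum of 20 UMIs in WT only, where 23 of the 47 lay in the barcode with 5 B cell markers. In stellate cells *H2-K1* was higher by 0.62 (0.22 to 1.05) on 80 and 131 UMIs, 1 of 4 members beside 10.2% of genes, and *H2-D1* was higher by 0.22. Of the 131 *H2-K1* UMIs, 11 lay in 1 barcode. The ratio is close to the 1.5-fold line and was not computed without that barcode.

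**Figure D5:**
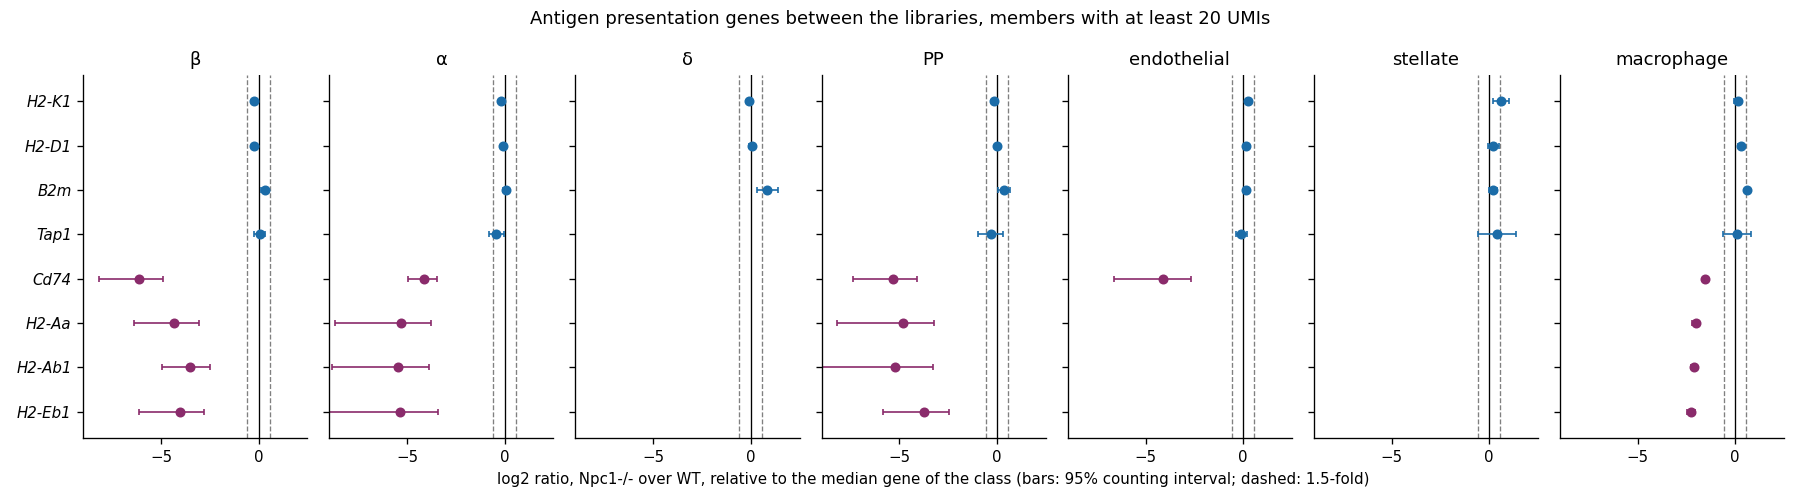
Log2 ratio of Npc1-/- over WT for each gene and class relative to the median gene of the class, for genes with at least 20 UMIs, with 95% intervals for counting error cut at -9 and dashed lines at 1.5-fold. Class II genes in macrophages lie between -2.27 and -1.55, and H2-K1 and H2-D1 lie within 0.62 of 0 in each class.

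The other genes of the class I pathway were read from a list of 21, of which 14 had at least 20 UMIs in macrophages. The median of these was 0.05 against 0 for all genes of the class. Of the 14, 0 passed upward and 2 downward, beside 24.5% of all genes in macrophages. The 2 were *Tap2* (-0.65, with an interval that included 0) and *H2-Q7* (-1.30), which shares sequence with the heavy chains. In β cells 1 of 19 passed relative to the median gene, beside 8.46% of all genes there: the chaperone *Calr*, at 441 CPM in WT and 306 in *Npc1*-/-. *Calr* was also lower in *Npc1*-/- in α, δ, PP, endothelial (561 and 402 CPM) and stellate cells (481 and 324 CPM). In macrophages it was higher in *Npc1*-/-, at 751 and 855 CPM. The pathway did not peak in 1 class. *Calr* was highest in *Npc1*-/- macrophages at 855 CPM, the immunoproteasome subunit *Psmb8* in WT B cells at 559, the loading complex member *Pdia3* in WT δ cells at 432, the proteasome activator *Psme1* in WT endothelial cells at 361, and the chaperone *Canx* in *Npc1*-/- δ cells at 252. *Psmb8* was at 13.1 CPM in both β cell samples against 259 and 263 in endothelial cells, a low level in β cells like that of *B2m* and *Tap1*. Of 20 genes with at least 20 CPM somewhere in WT, 7 were highest in endothelial cells and 0 in β cells. Hormones in the totals set part of this order. Without them β cells led for 3 of the 20 in WT: *Calr* at 1044 CPM, *Pdia3* at 742 and *Canx* at 413. In *Npc1*-/- β cells then led for 2 of 19 genes, with *Canx* at 460 CPM. Of the 20 in WT, 7 were still highest in endothelial cells.

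Of the class II pathway list, 19 of 22 genes were in the files and 6 had enough UMIs in macrophages. *Lgmn*, an asparaginyl endopeptidase of the lysosome, was higher by 1.02 in *Npc1*-/-, at 1104 and 2221 CPM, and *Ctss*, the protease that trims the invariant chain, stood at 2719 and 3923 CPM, within 1.5-fold. The peptide exchange genes *H2-DMa* and *H2-DMb1* had ratios of -0.72 and -0.99. Thus 1 of 6 passed upward and 2 downward, beside 24.5% of all genes in macrophages, with a median of 0.06. *Ciita*, named after its values were seen, had 16 UMIs in WT and 2 in *Npc1*-/- macrophages, too few for the rule, and was at 125 CPM in WT B cells. *H2-DMb2*, at 359 CPM, and *H2-Ob*, at 277, were highest in WT B cells and at 6.90 and 0 CPM in WT macrophages, where a count of 0 allows up to 3 UMIs. In β cells 1 of 9 passed, *Cd40*, with an interval that included 0, beside 8.46% of all genes there.

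Interferon genes gave no single direction in macrophages. Of 27 listed, 16 were measured there. Of these, 4 passed upward and 6 downward, beside 24.5% of all genes in macrophages. Upward were, among others, the antiviral genes *Rsad2* (1.84, on 7 UMIs in WT and 23 in *Npc1*-/-), *Ifit3* (1.11, on 20 and 38) and *Bst2* (0.70, on 393 and 556). Downward were, among others, *Irf1* (-1.03, on 31 and 13), a transcription factor of the interferon response, and the kinase *Jak1* (-0.63, on 66 and 37). So were the guanylate-binding proteins *Gbp3* (-1.16, on 29 and 11) and *Gbp7* (-2.16, on 38 and 7). The median of the 16 was -0.01. In β cells 1 of 18 passed, *Oasl2* (-0.68, on 55 and 37 UMIs), beside 8.46% of all genes measured there. The receptor genes *Ifngr1* and *Ifngr2* peaked at 345 CPM in WT macrophages and 183 CPM in *Npc1*-/- stellate cells, and *Rsad2* at 300 CPM in *Npc1*-/- endothelial cells. Of the list's genes with at least 20 CPM somewhere, 12 of 24 in WT and 15 of 24 in *Npc1*-/- were highest in endothelial cells.

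Among 9794 genes, those whose level over the 15 class and library sums was most like the summed class I members were *Tm6sf1* (Pearson's r = 0.99), *Rhbdf2*, *Def6*, *Gmfg* and *Rps6ka1* (0.97 each). Those most like the summed class II members were *Cd52* (0.98), *Ptprc*, *Susd3*, *Coro1a* and *Ighm* (0.97 each). The points share libraries and class definitions, and the values describe likeness of pattern only.

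RNA set free by broken cells can place UMIs in any droplet. With digestive enzyme genes as reporters and barcodes of at most 1000 genes as the profile of free RNA, it could give 4.18% of the heavy chain UMIs of WT β cells and 1.70% of those of *Npc1*-/- β cells, 29.4% and 7.11% of their *B2m* UMIs, and 118% and 25.1% of their class II UMIs. A value over 100% says that such a profile could give more than was observed. The barcodes of at most 1000 genes, 3429 in WT and 2787 in *Npc1*-/-, had median mitochondrial shares of 46.3% and 59.0%. They held 476 and 9 *Cd74* UMIs. Whether they hold free RNA alone or damaged cells as well was not tested. The estimates changed greatly with the reporter and profile. With *Gcg* as the reporter and stellate cells as the profile, the value for the heavy chains of WT β cells was 99.8%. Stellate cells are whole cells, with 80 *H2-K1*, 178 *H2-D1* and 305 *B2m* UMIs in WT. That profile is therefore not one of free RNA alone, and its values are no estimate of the free share. The part of free RNA in these levels is therefore not settled by these estimates.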

How the data were processed

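Droplet libraries of dispersed islets, 1 of WT and 1 of *Npc1*-/- mice, were analysed. The values deposited were unnormalized counts of UMIs for each gene in each barcode, and the submitters' processing notes name Cell Ranger 3.1.0, Seurat 4.0.3 and mm10. The genes and lists were chosen with earlier results of these data known.

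A barcode was kept if it had over 1000 genes, a total below 50000 UMIs, a mitochondrial share below 10% and a haemoglobin share of 0.1% or less. This and the sums were done with scanpy 1.11.5, pandas 2.3.3, scipy 1.17.1 and numpy 2.4.6 in Python 3.11.15. Endocrine classes were set by the hormone with the largest share, of at least 10% of UMIs. Other classes needed UMIs of at least 3 markers and a lead of 2 times over the next list, a rule set after the data were seen, and the rest stayed unnamed. PP cells rest on 2 markers, both used in the rule. The libraries shared 12 deposited barcodes. No doublets were removed in the values reported: Scrublet's own threshold called 1.40% of WT and 0.937% of *Npc1*-/- barcodes, and an alternative removed the 317 and 261 with the highest scores.

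UMIs were summed per class and library as CPM, with exact Poisson intervals. Ratios have conditional binomial intervals and shares Clopper-Pearson intervals, all at 95% and for counting error only. Ratios between genotypes were made with 0.5 counts added, for genes with at least 20 UMIs in either library and classes of at least 20 cells in each, and a ratio past 1.5-fold was counted. Relative to the total, the median gene lay within 0.14 of 0 on the log2 scale. R 4.3.3 with edgeR 4.0.16 gave the TMM factor of an alternative only. No test was made, since each genotype has 1 library and cells are not replicates. The ratios were tested on simulated counts with known changes.

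Genes named besides the 8 were the 5 of each list with the highest CPM in any class, those past 1.5-fold in macrophages or β cells with an interval excluding 0 (of which 1 is not reported here), and the 5 most like each summed class. Genes of the lists that were not matched (3 of 22 in the class II list) were left out. Promoter sequences were read from RefSeq for 6 of 8 genes.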

Additional observations from a re-analysis of the deposited data

Results flagged for a closer look

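The direction of the difference between libraries depended on the cell class for both heavy chains. For *H2-K1* the log2 ratio of *Npc1*-/- over WT was 0.62 in stellate cells and -0.24 in β cells. For *H2-D1* it was 0.31 in macrophages and -0.26 in β cells. The intervals for counting error excluded 0 in each of these classes. In *Npc1*-/- stellate cells, 11 of the 131 *H2-K1* UMIs lay in 1 barcode. With 1 pool of mice per genotype, the difference between the classes was not tested, and the classes differ in depth and in the share of hormone in their totals.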

How the results depend on the processing

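Of 2047 values computed under alternatives, 1233 stayed within the interval of the reported value. Alternatives named with immune or endothelial markers, C1q genes, no lead between marker lists, *Cela1* or another cell's hormone were chosen after seeing the data, as were the pathway list levels without hormones and the count of members without immune-marked barcodes. No paired analysis was possible because each genotype has 1 library and no test was made. The TMM factor kept each count of members past 1.5-fold. At this depth the class II genes of endocrine, endothelial and stellate cells rest on few molecules, and the macrophage values on 49 and 31 cells.

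The ratio of class II to class I UMIs in WT β cells was 0.0225, and 0.0114 under the stricter filter, 0.00904 without the highest doublet scores, 0.00540 without immune-marked barcodes and 0.00539 without immune-marked or endothelial-marked ones. In *Npc1*-/- β cells it was 0.000888, and under the last 3 of these 0.000416, 0.000462 and 0.000494. In WT endothelial cells, at 0.00630, it was 0.0138 with no lead between marker lists. In WT macrophages, at 4.21, it was 5.42 under the stricter filter, on 19 cells, 5.24 without doublet scores, 4.47 in those with all C1q genes and 5.23 with no lead. In *Npc1*-/- macrophages, at 0.907, it was 0.612 under the stricter filter, on 9 cells, 0.851 with no lead and 1.01 as a mean over cells.

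The log2 ratio between genotypes of *H2-Eb1* in PP cells reversed to 0.0792 without doublet scores, 0.53 without immune-marked and 0.59 without immune-marked or endothelial-marked barcodes. Each of these left out 2 barcodes with 47 of the 50 WT UMIs, and *Npc1*-/- PP cells held 4. The counts left lay below the minimum of 20 UMIs, so no direction can be read from them. The log2 ratio of summed class II in β cells, at -4.86, was -3.63 under the stricter filter. It was -3.71 without immune-marked and -3.62 without immune-marked or endothelial-marked barcodes. In macrophages it was -2.70 under the stricter filter, -1.995 without doublet scores and -2.27 with no lead. The stricter filter left 19 WT and 9 *Npc1*-/- macrophages, below the minimum of 20 cells. Summed class I was at -0.16 in β cells on totals without hormones, and in macrophages, at 0.44, it was 0.54 without doublet scores and 0.35 with no lead. Members past 1.5-fold were 1 in α and 0 in PP cells without immune-marked barcodes, with 38 and 17 class II UMIs left in WT. At 1 UMI or more they were 6 in δ, 2 in endothelial and 4 in stellate cells, and at 50 UMIs or more 0 in endothelial cells. Each class II gene of δ cells rests on 0 to 4 UMIs in a library, with an interval that includes 0. No share of all genes is given beside these counts. The cause was not tested for any of the changes above.

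Any class II gene was seen in 6.27% of WT and 0.602% of *Npc1*-/- β cells and 96.8% of *Npc1*-/- macrophages without thinning, and in 0% of *Npc1*-/- β cells at 2500 UMIs. The share that free RNA could give varied most. For the heavy chains of WT β cells it was 13.4% with the haemoglobin-rich profile, 65.4% with the profile of all barcodes, and 26.9% and 99.8% with *Gcg* as the reporter and the haemoglobin-rich or stellate profile. For *B2m* these were 177%, 529%, 356% and 6654%. In *Npc1*-/- β cells they were 0.968%, 8.72%, 12.2% and 121% for the heavy chains and 0%, 48.5%, 0% and 4947% for *B2m*, and leaving out *Cela1* gave 1.41% for the heavy chains. The haemoglobin-rich profile held 4 *B2m* UMIs in WT and 0 in *Npc1*-/-. Its *H2-K1* and *H2-D1* UMIs were 5 and 12 in WT and 4 and 2 in *Npc1*-/-. Its values thus rest on few molecules, and the 0% does not show that free *B2m* was absent. The profiles of all barcodes and of stellate cells hold the RNA of whole cells, so their values are not estimates of free RNA alone.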

Other observations

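Class II UMIs also lay outside the named classes. In the WT library, 25 unnamed barcodes with 20 or more class II UMIs held 8061 of the 8097 class II UMIs of all unnamed barcodes, and 3 of the 25 had UMIs of 3 or more B cell markers and 6 of 3 or more macrophage markers. In the *Npc1*-/- library 1 such barcode held 63 of 70. The 79 WT T cells held 563 class II UMIs, and 0 barcodes met the T cell rule in *Npc1*-/-.

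*Ctss*, a protease of the class II pathway, had 43 UMIs in *Npc1*-/- δ cells and 0 in WT δ cells, in the class where 33 of the 80 *B2m* UMIs of *Npc1*-/- lay in 1 barcode. *H2-Eb1* had 9 UMIs in WT stellate cells, against 1 UMI each of *Cd74* and *H2-Aa* and 2 of *H2-Ab1*. *H2-Ab1* had 12 UMIs in *Npc1*-/- endothelial cells, against 3 of *Cd74* and 1 of *H2-Aa*. The share of macrophages with *H2-Aa* below 1000 CPM was 49.0% in WT and 83.9% in *Npc1*-/-.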
